A study of Homo sapiens with 9 samples.

Results

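The ERBB receptors, their ligands and the ERBB inhibitor ERRFI1 were followed in MDA-MB-231, an established line of triple-negative breast cancer cells. The members were all probe sets that the HG-U133 Plus 2.0 annotation maps to a single symbol out of EGFR, ERBB2, ERBB3, ERBB4, NRG1, AREG, EREG, HBEGF, TGFA and ERRFI1. This mapping rule uses no measured value, but the genes were chosen with earlier results of these data known. It gave 37 probe sets of the 54613 tested. They stood for 9 of the 10 genes, out of 19775 genes with a probe set of their own: 9 for EGFR, 3 for ERBB2, 5 for ERBB3, 4 for ERBB4, 6 for NRG1, 2 for EREG, 4 for HBEGF, 3 for TGFA and 1 for ERRFI1. AREG had no probe set under the rule and was not analysed here.

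All 3 groups were MDA-MB-231 cells without a stated genetic change, reverse transfected with Lipofectamine 2000 and harvested 48 h later, and each group had 3 biological replicates. The first group received AllStar, a negative control, the second Qmimic and the third Dmimic, each at 10 nM. The control cells thus also carried a transfected RNA and the lipid reagent, and no untransfected cells were included. The design covers a single cell line at a single dose and time. Each array holds the RNA of a whole well, so fewer cells expressing a gene and less of its RNA per cell cannot be told apart.

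The ERBB receptors are a family of receptor tyrosine kinases at the cell surface. EGFR binds ligands such as TGF-alpha, epiregulin, amphiregulin and HB-EGF, ERBB3 and ERBB4 bind neuregulins, and ERBB2 has no known ligand and acts as a partner. ERBB3 has a weak kinase and signals as a partner of the other receptors, with many docking sites for PI3 kinase in its tail. The ligands are made as membrane-bound precursors and released by proteases. ERRFI1, also called MIG6, binds the kinase domain of EGFR and its relatives and inhibits it. Triple-negative breast cancers lack amplification of ERBB2, and EGFR is often abundant in them.

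The study's subject, by its title, is miR-34a, a microRNA, and its mature RefSeq sequence is shown for that reason. The labels give no sequence for Qmimic or Dmimic. The capitals mark the seed, bases 2 to 8, which pairs with sites in target messenger RNAs.

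hsa-miR-34a-5p: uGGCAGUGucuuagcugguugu

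Its place in GRCh38.p14 is chr1:9151735-9151756 on the minus strand, inside the gene MIR34A.

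The values are log2 signals after RMA, a method that corrects background, equalises the arrays and summarises the probes of a probe set, so a difference of 1 is a doubling. Calls needed a limma adjusted p under 0.05 together with a difference of 1.5-fold or more. Signals of different probe sets depend on the probes and give no order of abundance between genes. As a mark of the scale, the lower quartile of the arrays lay at 4.01 to 4.21, the median at 5.44 to 5.60 and the upper quartile at 7.20 to 7.54. The label of the cells was checked against markers. All 6 measured genes of a list of 7 mesenchymal breast line genes lay above the median, and the mean of that list was 11.89 to 12.11 across arrays. Of 8 luminal and hormone receptor genes, CDH1 (3.44 to 4.02), FOXA1 (3.74 to 4.17) and PGR (3.64 to 4.72) lay near the lower quartile, and TFF1 at 4.98 to 5.59. By their mean over arrays 4 of the 8 lay above the median. These were ESR1 (6.74 to 7.45), KRT19 (11.56 to 12.36), GATA3 (7.45 to 8.61) and EPCAM (7.25 to 8.36). The mean of 4 leukocyte genes was 4.68 to 5.03, and by their mean over arrays 2 of them lay above the median, CD14 at 5.57 to 6.22 and CD3E at 5.24 to 5.98. That of 7 fibroblast and endothelial genes was 4.86 to 5.15, and 2 of them lay above it, COL1A1 at 7.04 to 7.40 and PECAM1 at 6.03 to 6.77. PTPRC (3.73 to 4.46) and CDH5 (3.19 to 3.58) lay near or below the lower quartile.

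AllStar replicate 3 was unlike the other 8 arrays, with correlations of 0.974 to 0.981 against 0.993 to 0.998 and an interquartile range of 2.99 against 3.41 to 3.53. Its place among the members followed their signal. On all 9 member probe sets with a mean of 8 or more on AllStar replicates 1 and 2, replicate 3 was lower than that mean, by 0.25 to 0.74. On 7 of the 8 with a mean under 5 it was higher, by up to 0.63. It lay below the other 8 arrays on 10 of the 37 probe sets and above them on 13, whereas over all probe sets it did so on 33.9% and 37.4%. Comparisons of the members with AllStar are therefore given with this array and without it. The part of this array in differences that change between the fits was not tested further.

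**Figure D1:**
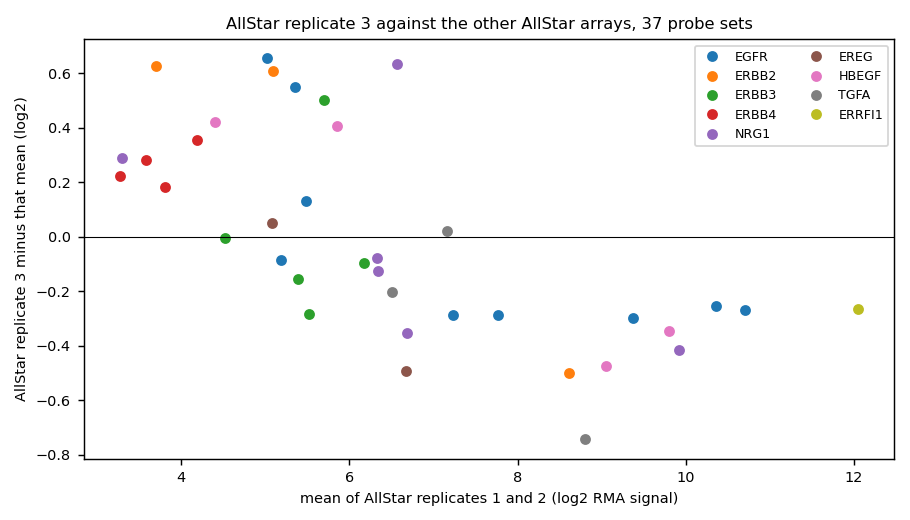
Each point is 1 of the 37 probe sets, coloured by gene. The x axis is the mean log2 RMA signal of AllStar replicates 1 and 2 and the y axis the log2 difference of AllStar replicate 3 from that mean. The 9 probe sets at 8 or more all lie below 0, between -0.74 and -0.25, and 7 of the 8 under 5 lie above it.

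The question asked of each comparison was which transcripts of the receptor system differ after transfection with a mimic. ERBB3 was higher for the mean of both mimics on 2 of its 5 probe sets, by 1.96-fold and 1.79-fold, while its other probe sets lay below 0. Neither mimic alone passed with all 9 arrays. The 2 calls were lost when any single array other than AllStar replicate 3 was left out. No other member passed with all 9 arrays. TGFA lay lower for the mean of both mimics on all 3 of its probe sets, and 1 of these passed for Dmimic in the fit without AllStar replicate 3. EGFR, ERBB2, ERBB4, NRG1, EREG, HBEGF and ERRFI1 had no called probe set in any of the 4 comparisons, with or without that array.

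With all 9 arrays limma called 0 of the 37 probe sets for Qmimic against AllStar, while 9 passed an unadjusted p of 0.05. Over all probe sets 0% were called and 16.3% passed the unadjusted p. For Dmimic against AllStar limma called 0, with 6 under the unadjusted p. Over all probe sets 0.00549% were called and 12.8% passed the unadjusted p. For the mean of both mimics limma called 2, both higher, where 0.0806% of all probe sets were called. The groups of 6 mimic and 3 AllStar arrays did not overlap on 6 of the 37 probe sets. The mimics were higher on 4 of them (8.33% of all probe sets) and lower on 2 (3.83% of all probe sets). The median log2 difference of the 37 for both mimics was -0.08, beside -0.03 over all probe sets. Leaving out AllStar replicate 3, the counts were 2 for Qmimic, 3 for Dmimic and 2 for both mimics, where 0.54%, 0.864% and 0.721% of all probe sets were called. The medians in that fit were -0.05 for the members and -0.01 for all probe sets with both mimics.

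**Figure D2:**
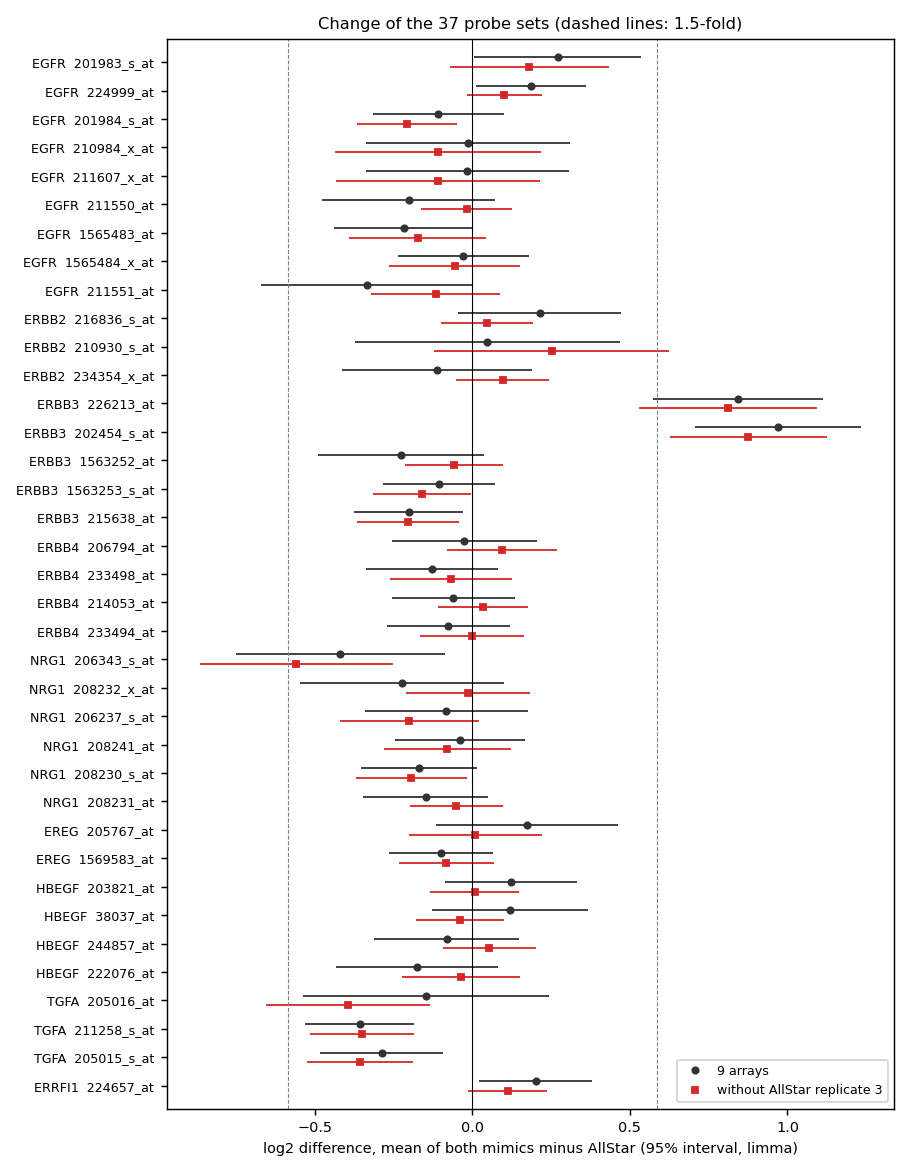
The log2 difference of the mean of both mimics from AllStar is shown for each of the 37 probe sets, with its unadjusted 95% interval from limma. Black circles use all 9 arrays and red squares leave out AllStar replicate 3, and dashed lines mark 1.5-fold. The ERBB3 probe sets 202454_s_at and 226213_at lie at 0.97 and 0.84 with all 9 arrays, and the TGFA probe sets lie at -0.15, -0.36 and -0.29.

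ERBB3, the neuregulin receptor with the weak kinase, had its clearest change on 202454_s_at, which the annotation ties to a RefSeq transcript of the gene. The log2 signal there was 5.46, 5.57 and 5.23 on the 3 AllStar arrays. It was 6.74, 6.52 and 6.28 with Qmimic and 6.19, 6.19 and 6.43 with Dmimic. The lowest mimic array thus lay above the highest AllStar array, and AllStar replicate 3 was the lowest of all 9. The difference for the mean of both mimics was 0.97 (SE 0.12, limma adjusted p = 0.0341), which is 1.96-fold. Qmimic alone differed by 1.09 (adjusted p = 0.111) and Dmimic alone by 0.85 (adjusted p = 0.0866), and neither passed.

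On the second ERBB3 probe set, 226213_at, the AllStar arrays read 6.14, 6.21 and 6.08. The Qmimic arrays read 7.14, 7.21 and 6.80 and the Dmimic arrays 6.96, 6.68 and 7.13, again with no overlap. The 3 AllStar arrays were close together here (6.14 ± 0.07, SD, n = 3), so this difference rested less on replicate 3. It was 0.84 for both mimics (SE 0.12, 1.79-fold, limma adjusted p = 0.0431). Qmimic alone differed by 0.90 (adjusted p = 0.111) and Dmimic alone by 0.78 (adjusted p = 0.0908). Exact permutation, two-sided, of the arrays of both mimics and AllStar gave p = 0.0119 for each of these probe sets, the smallest that 6 arrays against 3 allow. The same p was reached on 224999_at of EGFR, 224657_at of ERRFI1 and 211258_s_at and 205015_s_at of TGFA, none of them called for both mimics. The groups did not overlap on any of these. Over all probe sets 8.33% did not overlap with the mimics higher and 3.83% with the mimics lower. For a single mimic the exact permutation test gave p = 0.1 on the 2 ERBB3 probe sets, the smallest for 3 against 3. Such tests were computed for all 37 probe sets in 4 comparisons, 148 in each of the 2 fits.

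Both ERBB3 probe sets passed for each mimic once AllStar replicate 3 was left out. With Qmimic 202454_s_at was 2.00-fold higher (log2 1.00, SE 0.13, limma adjusted p = 0.00845) and 226213_at 1.83-fold (adjusted p = 0.0202). With Dmimic they were 1.69-fold (adjusted p = 0.0216) and 1.68-fold higher (adjusted p = 0.0308). The mean of both mimics lay 0.88 (adjusted p = 0.00769) and 0.81 (adjusted p = 0.015) above AllStar. Under the other normalisations and weights tried, or with 1 array left out, the difference for both mimics ran from 0.83 to 1.05 on 202454_s_at and from 0.78 to 0.91 on 226213_at.

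Whether these differences passed depended on the arrays. The 2 calls for both mimics with all 9 arrays became 0 without AllStar replicate 1, without AllStar replicate 2 and without any 1 of the 6 mimic arrays, and the adjusted p of both probe sets ran from 0.0584 to 0.188 in those 8 fits. The share called over all probe sets was 0.0806% with all 9 arrays. It fell to 0.0256% without AllStar replicate 2 and to 0% in the rest of those 8 fits. Over all alternatives to the fit of 9 arrays the adjusted p of both probe sets ran from 0.00024 to 0.188. Shares over all probe sets are not given for the fits that follow, which leave out a further array. In the 8 arrays without AllStar replicate 3, the 2 ERBB3 calls for Qmimic became 0 without AllStar replicate 1 or AllStar replicate 2 and 1 without Qmimic replicate 1 or Qmimic replicate 2. For Dmimic the 3 calls became 0 without either AllStar array and 1 without Qmimic replicate 2, Dmimic replicate 1 or Dmimic replicate 3. For both mimics the 2 calls became 0 without either AllStar array and 3 without Dmimic replicate 2, where an NRG1 probe set was added.

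The other 3 ERBB3 probe sets, tied to other GenBank records, did not share the rise. On 1563252_at the AllStar arrays read 5.75, 5.64 and 6.20, the Qmimic arrays 5.46, 5.60 and 5.68 and the Dmimic arrays 5.70, 5.68 and 5.73. The groups overlapped, and AllStar replicate 3 was the highest array. Its difference for both mimics was -0.22 (limma adjusted p = 0.31), and -0.06 without that array (adjusted p = 0.731). On 1563253_s_at the difference was -0.11 (adjusted p = 0.435; without AllStar replicate 3 -0.16, adjusted p = 0.253), with signals of 5.11 to 5.45 over the 9 arrays. On 215638_at it was -0.20 in both fits (adjusted p = 0.217 and 0.162). There the AllStar arrays read 4.48, 4.55 and 4.51, the Qmimic arrays 4.22, 4.27 and 4.27 and the Dmimic arrays 4.32, 4.52 and 4.27, so that Qmimic did not overlap AllStar and Dmimic did. With all 9 arrays the unadjusted 95% intervals of these 3 reached at most 0.07, while those of the called probe sets began at 0.57 and 0.71. The difference between probe sets of the gene was itself not tested. Which parts of the ERBB3 transcripts the probe sets cover was not analysed here.

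**Figure D3:**
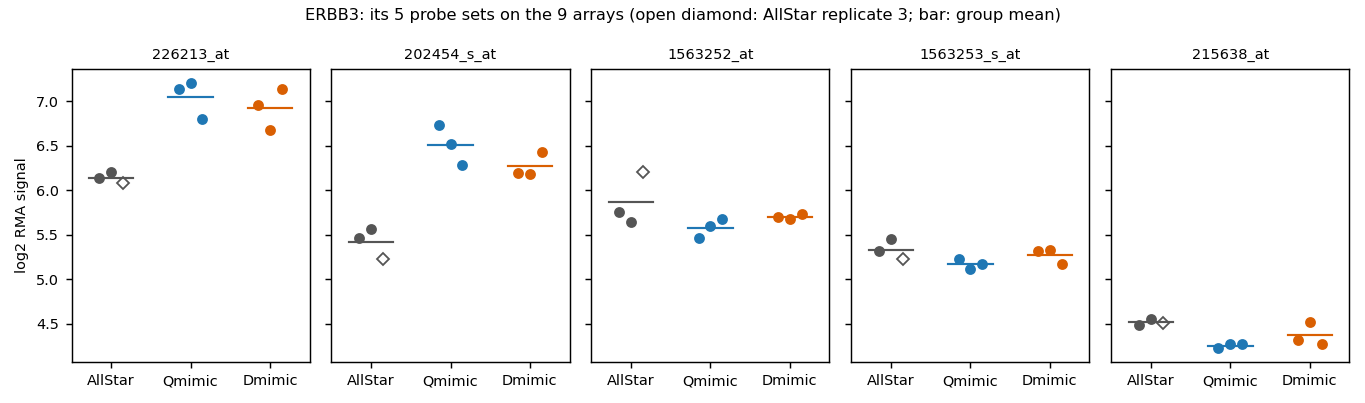
The log2 RMA signal of the 5 ERBB3 probe sets is shown for the 9 arrays by group, with a bar at each group's mean and an open diamond for AllStar replicate 3. On 226213_at and 202454_s_at the 6 mimic arrays lie above all 3 AllStar arrays, while on the other 3 they overlap. On 215638_at the Qmimic arrays, at 4.22 to 4.27, lie below the AllStar arrays.

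No difference between the mimics was detected on these ERBB3 probe sets. Dmimic minus Qmimic was -0.24 on 202454_s_at (unadjusted 95% interval -0.55 to 0.06) and -0.12 on 226213_at (-0.43 to 0.19). Without AllStar replicate 3 the intervals were -0.49 to 0.01 (limma adjusted p = 0.461) and -0.41 to 0.16 (adjusted p = 0.76). A lower signal with Dmimic, as far as the low ends of these intervals, was not excluded.

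EGFR, the receptor of most ligands in this set, had 9 probe sets and none was called. On 201983_s_at, its probe set with the highest signal, the AllStar arrays read 10.85, 10.54 and 10.43. The Qmimic arrays read 10.89, 11.03 and 10.98 and the Dmimic arrays 10.99, 10.56 and 10.84. The Qmimic arrays lay above all AllStar arrays by a narrow margin, and the Dmimic arrays overlapped with them. The difference for both mimics was 0.27 (SE 0.12, limma adjusted p = 0.253), and 0.18 without AllStar replicate 3 (adjusted p = 0.431).

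On a second EGFR probe set, 224999_at, the AllStar arrays read 10.36, 10.35 and 10.10, the Qmimic arrays 10.53, 10.49 and 10.49 and the Dmimic arrays 10.42, 10.40 and 10.43. All 6 mimic arrays were higher than all 3 AllStar arrays, by a difference of 0.19 (adjusted p = 0.243) that was 0.10 without AllStar replicate 3 (adjusted p = 0.345). The third, 201984_s_at, which is tied to a RefSeq transcript, pointed the other way: 9.46, 9.28 and 9.07 with AllStar, 9.16, 9.22 and 9.14 with Qmimic and 9.25, 9.12 and 9.08 with Dmimic. Its difference was -0.11 (adjusted p = 0.491) and -0.21 without AllStar replicate 3 (adjusted p = 0.147). The remaining 6 EGFR probe sets had differences of -0.33 to -0.01 for both mimics, with an adjusted p of 0.261 or more, and of -0.17 to -0.02 without AllStar replicate 3. The probe sets of EGFR thus disagreed in sign, and none of the differences passed.

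ERBB2, the receptor without a ligand, had signals of 8.60, 8.62 and 8.11 with AllStar on its highest probe set, 216836_s_at. They were 8.78, 8.65 and 8.66 with Qmimic and 8.61, 8.70 and 8.54 with Dmimic. AllStar replicate 3 was the lowest array, and the other 8 lay within 8.54 to 8.78. The difference for both mimics was 0.21 (limma adjusted p = 0.317) and 0.05 without that array (95% interval -0.10 to 0.19). The ERBB2 probe set 210930_s_at lay at 0.05 (adjusted p = 0.889) with all 9 arrays and at 0.25 without AllStar replicate 3 (adjusted p = 0.468). The last, 234354_x_at, changed sign, from -0.11 (adjusted p = 0.621) to 0.10 (adjusted p = 0.482).

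ERBB4, the second neuregulin receptor, gave signals of 3.16 to 4.54 on its 4 probe sets, near the arrays' lower quartile. The differences for both mimics were -0.13 to -0.02 with all 9 arrays, and -0.07 to 0.09 without AllStar replicate 3, which was the highest of all arrays on each of the 4.

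Among the ligands, NRG1 encodes the neuregulins that bind ERBB3 and ERBB4. Its probe set with the highest signal, 206343_s_at, read 9.93, 9.91 and 9.50 with AllStar. It read 9.18, 9.41 and 9.44 with Qmimic and 9.50, 9.63 and 9.02 with Dmimic. The Qmimic arrays lay below all AllStar arrays, and the Dmimic arrays overlapped with AllStar replicate 3 alone. The difference for both mimics was -0.42 (SE 0.15, limma adjusted p = 0.198) with all 9 arrays and -0.56 (adjusted p = 0.0591) without AllStar replicate 3, and neither passed. It was -0.62 (adjusted p = 0.0278), past both thresholds, when AllStar replicate 3 and Dmimic replicate 2 were both left out. Qmimic alone differed by -0.44 (adjusted p = 0.276) and Dmimic alone by -0.40 (adjusted p = 0.371). In the 8 arrays these were -0.58 (adjusted p = 0.0889) and -0.54 (adjusted p = 0.099). The other 5 NRG1 probe sets had differences of -0.22 to -0.04 for both mimics, and of -0.20 to -0.01 without AllStar replicate 3. All 6 NRG1 differences for the mean of both mimics were below 0 in both fits. With Dmimic alone 206237_s_at (0.03) and 208241_at (0.02) lay above 0 with all 9 arrays. In the other fit 208232_x_at (0.01) and 208231_at (0.01) did so. With all 9 arrays 10 of the 37 member probe sets lay above 0 for both mimics, a direction that 43.5% of all probe sets had. Without AllStar replicate 3 these were 13 of the 37 and 47.3%.

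TGFA, which encodes the EGFR ligand TGF-alpha, lay lower with the mean of both mimics on 3 of 3 probe sets, in no case past the thresholds with all 9 arrays. On 211258_s_at the signal was 7.25, 7.08 and 7.19 with AllStar, 6.77, 6.77 and 6.85 with Qmimic and 6.95, 6.75 and 6.80 with Dmimic. No mimic array reached the AllStar arrays. The difference for both mimics was -0.36 (SE 0.08, limma adjusted p = 0.0874), a size of 1.28-fold. It was -0.35 without AllStar replicate 3 (adjusted p = 0.0374), past the threshold for p and under 1.5-fold.

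On 205015_s_at the TGFA signal was 6.58, 6.42 and 6.30 with AllStar, 6.22, 6.18 and 6.26 with Qmimic and 6.06, 6.21 and 5.97 with Dmimic, again without overlap. The difference was -0.29 (adjusted p = 0.152), and -0.36 without AllStar replicate 3 (adjusted p = 0.0379). The third probe set, 205016_at, read 8.83, 8.77 and 8.06 with AllStar, 8.56, 8.66 and 8.64 with Qmimic and 8.27, 8.43 and 7.88 with Dmimic. AllStar replicate 3 lay 0.74 below the mean of the other AllStar arrays here and among the Dmimic arrays. Without it the difference with Dmimic was -0.61 (SE 0.13, 1.52-fold, adjusted p = 0.0439), a fall that passed both thresholds, and with all 9 arrays it was -0.36 (adjusted p = 0.464). Of the 8 fits that left out a further array, this call held without Dmimic replicate 2 (-0.73, adjusted p = 0.0159) and was lost in the other 7, with differences of -0.65 to -0.45. With Qmimic the same probe set differed by 0.07 with all 9 arrays (adjusted p = 0.86) and by -0.18 without AllStar replicate 3 (adjusted p = 0.505). The Dmimic arrays lay below the Qmimic arrays, by -0.43, which did not pass (adjusted p = 1 with all 9 arrays and adjusted p = 0.228 without AllStar replicate 3).

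HBEGF, the heparin-binding ligand of EGFR and ERBB4, read 9.79, 9.82 and 9.46 with AllStar on 203821_at. It read 9.73, 9.69 and 9.73 with Qmimic and 9.82, 9.90 and 10.00 with Dmimic. AllStar replicate 3 was the lowest array, and the Dmimic arrays lay above the Qmimic arrays. The difference from AllStar was 0.03 with Qmimic (limma adjusted p = 0.9) and 0.22 with Dmimic (adjusted p = 0.421). Without AllStar replicate 3 the Qmimic value turned to -0.09 (adjusted p = 0.549) and the Dmimic value was 0.11 (adjusted p = 0.511). On 38037_at, a second HBEGF probe set, these were 0.01 (adjusted p = 0.965) and 0.23 (adjusted p = 0.463) with all 9 arrays. In the other fit they were -0.15 (adjusted p = 0.303) and 0.07 (adjusted p = 0.688). Dmimic minus Qmimic was 0.20 on the first and 0.22 on the second (adjusted p = 1 for both, and 0.3 and 0.254 without AllStar replicate 3). The other 2 probe sets lay at -0.08 and -0.18 for both mimics, and at 0.05 and -0.03 without that array.

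EREG, the gene of epiregulin, read 6.75, 6.60 and 6.18 with AllStar, 6.76, 6.82 and 6.47 with Qmimic and 6.67, 6.60 and 6.77 with Dmimic on 205767_at. Only AllStar replicate 3 lay outside the range of the mimic arrays. The difference for both mimics was 0.17 (limma adjusted p = 0.433) and 0.01 without that array (95% interval -0.20 to 0.22). The second EREG probe set lay at -0.10 (adjusted p = 0.434), and at -0.08 without that array (adjusted p = 0.575).

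ERRFI1, the inhibitor of the ERBB kinases, was read by 1 probe set, 224657_at. Its signal was 12.05, 12.04 and 11.78 with AllStar, 12.09, 12.16 and 12.16 with Qmimic and 12.16, 12.17 and 12.19 with Dmimic. All 6 mimic arrays lay above all AllStar arrays, by 0.20 (limma adjusted p = 0.232), or by 0.11 without AllStar replicate 3 (adjusted p = 0.315).

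**Figure D4:**
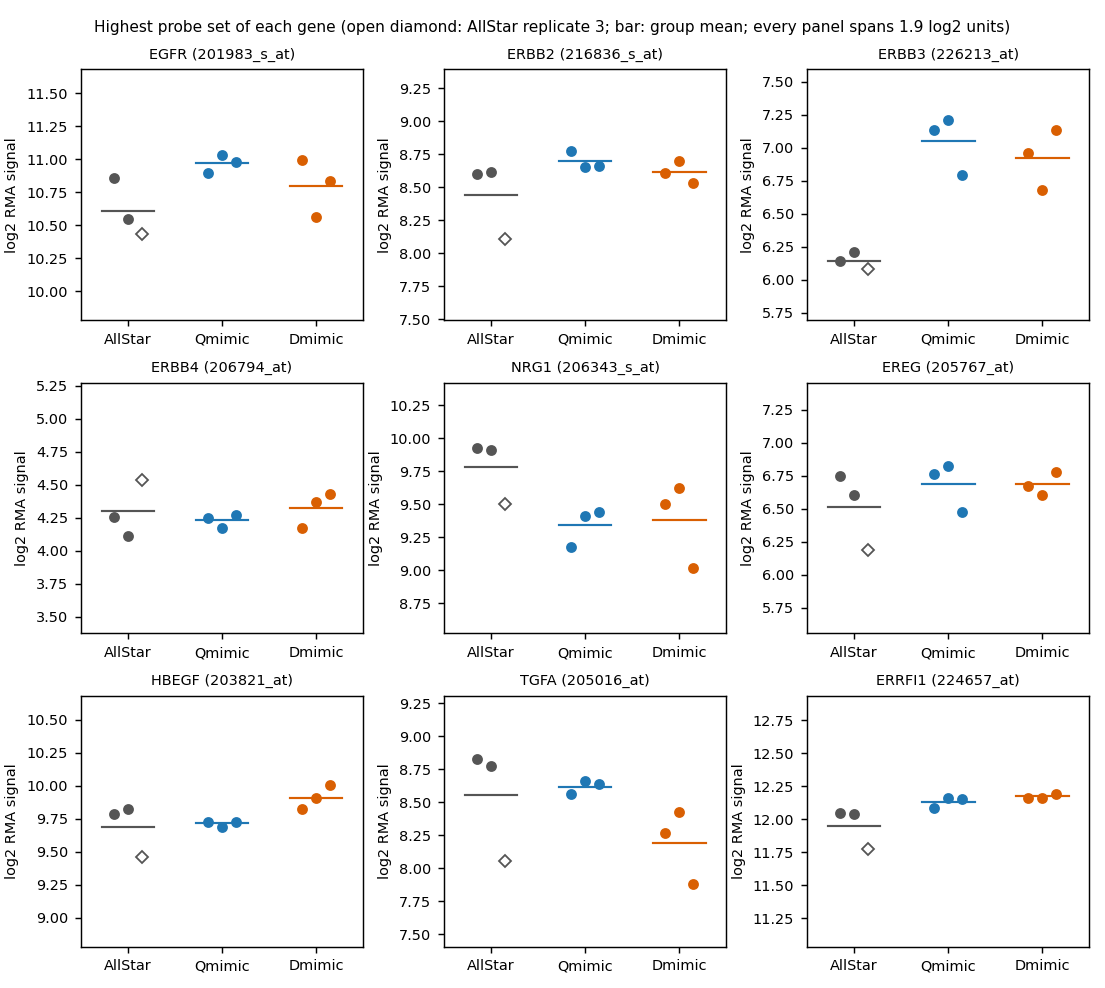
The log2 RMA signal of the highest probe set of each of the 9 genes is shown for every array by group, with a bar at the group mean and an open diamond for AllStar replicate 3. Every panel spans the same number of log2 units. ERBB3 moves from 6.08 to 6.21 with AllStar up to 6.68 to 7.21 with the mimics, and AllStar replicate 3 is the lowest array for EGFR, ERBB2, ERBB3, EREG, HBEGF and ERRFI1 and the highest for ERBB4.

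The mimics were also set against each other, which asks where the second mimic differs from the first. Limma called 0 of the 37 probe sets for Dmimic against Qmimic, beside 0% of all probe sets. An unadjusted p of 0.05 was passed by 0 of the 37 and by 2.41% of all probe sets. In the fit without AllStar replicate 3, whose spread enters the model, limma called 0, beside 0.0806%. There 3 of the 37 passed the unadjusted p, beside 11.1% of all probe sets. The Dmimic arrays did not overlap the Qmimic arrays on 7 probe sets. They were higher on 5, which are 1 each of ERBB3 (215638_at), NRG1 (208230_s_at) and ERRFI1 and 2 of HBEGF (8.95% of all probe sets were higher in this way). They were lower on 2, 224999_at of EGFR and 205016_at of TGFA (7.11% of all probe sets). The median unadjusted 95% half-width for the members was 0.27 with all 9 arrays and 0.17 without AllStar replicate 3. A call also needed 1.5-fold and a p adjusted over all probe sets. Differences well above these half-widths could therefore go uncalled. The comparisons of the mimics with AllStar share their control arrays, so likeness between them is not independent.

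Other genes of the ERBB pathway were taken from 7 lists with 110 symbols, of which 97 were measured, and each was read by its probe set with the highest signal. With all 9 arrays 0 were called for Qmimic, 0 for Dmimic and 0 for both mimics, while over all genes read in this way 0%, 0.0101% and 0.131% were called. In the fit without AllStar replicate 3, 1 was lower with Qmimic (0.693% of all genes were called). In that fit 2 were higher and 2 lower with Dmimic (1.27%), and 2 were higher and 1 lower with both mimics (1.04%). The last 3 calls became 0 when AllStar replicate 1, AllStar replicate 2 or Qmimic replicate 2 was also left out and 1 without Qmimic replicate 1 or Dmimic replicate 3. Shares over all genes were not computed for those further fits. For Dmimic against Qmimic 0 were called with all 9 arrays (0%) and 0 without AllStar replicate 3 (0.0961%). The median difference of the 97 genes for both mimics was 0.16 with all 9 arrays, beside -0.02 over all genes, and 0.05 without AllStar replicate 3, beside -0.00. AllStar replicate 3 lay at a median of -0.35 on the 97 genes relative to the other AllStar arrays and at -0.05 on all genes.

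The RAS and ERK arm, which carries the signal from the receptors to the nucleus, had 9 of 15 genes measured. MAP2K1, the kinase MEK1, had a mean signal of 10.23 ± 0.25 (SD, n = 3) on the AllStar arrays, 9.76 ± 0.16 on the Qmimic arrays and 9.68 ± 0.23 on the Dmimic arrays. In the 8 arrays it fell with Qmimic (1.53-fold, limma adjusted p = 0.0462), with Dmimic (1.62-fold, adjusted p = 0.0278) and with both (1.57-fold, adjusted p = 0.0216). Over all 9 arrays its difference for both mimics was -0.51 (adjusted p = 0.121). ARAF, a RAF kinase, fell 1.58-fold with Dmimic in the fit without that array (adjusted p = 0.0192), while its second probe set lay at 0.08 (adjusted p = 0.817). MAP2K2, the kinase MEK2, differed by 0.35 for both mimics with all 9 arrays (adjusted p = 0.107) and by 0.28 in the 8 arrays (adjusted p = 0.0645).

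The ERK feedback and early response genes were 19 of 19 measured. EGR1, an early response transcription factor, had a mean signal of 8.20 ± 0.14 (SD, n = 3) on the AllStar arrays, 8.75 ± 0.05 on the Qmimic arrays and 9.03 ± 0.31 on the Dmimic arrays. In the 8 arrays it rose 1.69-fold with Dmimic (limma adjusted p = 0.0303) and 1.53-fold with both mimics (adjusted p = 0.0339). Its other 2 probe sets lay at 0.41 (adjusted p = 0.148) and 0.00 (adjusted p = 0.992) for both mimics in that fit. With all 9 arrays its difference for both mimics was 0.69 (adjusted p = 0.0605). SPRY2 and DUSP6, which damp the ERK pathway, differed by 0.46 (adjusted p = 0.0926) and 0.51 (adjusted p = 0.108) for both mimics. They lay at 0.32 (adjusted p = 0.0367) and 0.33 (adjusted p = 0.0402) without that array, under 1.5-fold.

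Genes of receptor degradation and other inhibitors were 21 of 22 measured. CBLB, a ubiquitin ligase of active receptors, had a mean signal of 6.96 ± 0.38 (SD, n = 3) on the AllStar arrays, 7.89 ± 0.14 on the Qmimic arrays and 7.79 ± 0.35 on the Dmimic arrays. It rose 1.59-fold with both mimics without AllStar replicate 3 (limma adjusted p = 0.0413), on 1 of its 3 probe sets, while the others lay at 0.52 (adjusted p = 0.135) and -0.04 (adjusted p = 0.855). Its difference with all 9 arrays was 0.88 (adjusted p = 0.0759). UBASH3B, a phosphatase that acts on tyrosine kinases, rose 1.61-fold with Dmimic in the fit without that array (adjusted p = 0.0262). This was 1 of 5 probe sets for the gene, and the others lay between 0.12 and 0.53. With all 9 arrays it differed by 0.63 for both mimics (adjusted p = 0.0605). USP8, a deubiquitinase of endosomes, differed by 0.36 for both mimics (adjusted p = 0.13), and by 0.26 in the 8 arrays (adjusted p = 0.103).

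The remaining 4 lists held no called gene in any comparison. Of the adaptors, SHC1 differed by 0.37 (limma adjusted p = 0.136), SOS1 by 0.61 (adjusted p = 0.149) and GRB2 by 0.35 (adjusted p = 0.175) for both mimics with all 9 arrays. In the 8 arrays these were 0.25, 0.30 and 0.18, of which SOS1 passed the threshold for p (adjusted p = 0.0473) but not for fold. Of the ligand-releasing proteases, ADAM17 differed by 0.27 (adjusted p = 0.124) and ADAM10 by 0.31 (adjusted p = 0.18), and RHBDF2, a partner of ADAM17, by 0.41 (adjusted p = 0.187). Without AllStar replicate 3 they lay at 0.28 (ADAM17), 0.18 (ADAM10) and 0.18 (RHBDF2). In the PI3K and AKT arm TSC1 (0.35), FOXO1 (0.27) and MTOR (0.21) had an adjusted p of 0.188 to 0.222, and lay at 0.25, 0.13 and 0.16 without that array. Of the other ligands, NRG2 differed by -0.29 (adjusted p = 0.174), EGF by 0.11 (adjusted p = 0.512) and BTC by -0.07 (adjusted p = 0.634), and these were -0.19, -0.01 and -0.10 without that array.

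**Figure D5:**
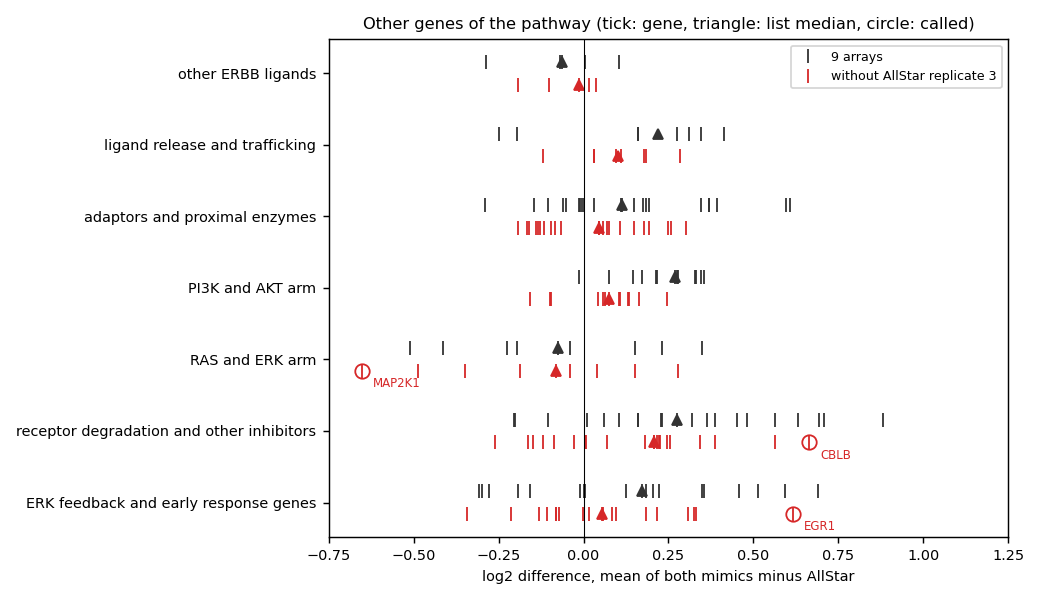
Each tick is the log2 difference of 1 gene, as the mean of both mimics minus AllStar, in 7 lists of other pathway genes. Black marks use all 9 arrays and red marks leave out AllStar replicate 3, a triangle marks each list's median and a circle a called gene. MAP2K1, CBLB and EGR1 are called without AllStar replicate 3 and no gene with all 9 arrays.

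The genes whose signal across arrays was most like that of ERBB3, TGFA and EGFR were found by Pearson correlation. The points are 9 arrays that share the split between AllStar and mimics, so the values are descriptions. For ERBB3 (202454_s_at) the 5 most alike were TRIM8 (r = 0.994), OPLAH (0.993), ARHGEF18 (0.988), CBFA2T2 (0.988) and TIMP3 (0.988). TRIM8 (0.995) and OPLAH (0.990) stayed among the first 5 over the 8 arrays without AllStar replicate 3. For TGFA (211258_s_at) they were MBD2 (0.968), MET (0.968), ATAD2B (0.962), KMT2A (0.961) and C5 (0.949), none of which was among the first 5 over 8 arrays. For EGFR (201983_s_at) they were TAF9B (0.987), DICER1 (0.983), SMAD5 (0.978), ITPRIPL2 (0.977) and BBX (0.977). DICER1 (0.986) and SMAD5 (0.983) stayed among the first 5 over 8 arrays.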

How the data were processed

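Total RNA from 9 wells was hybridised to HG-U133 Plus 2.0 arrays, 1 per well. The authors deposited log2 signals per probe set after RMA, per the series text and the submitters' processing notes, which also name limma. Versions are not given in the sources used here. The table held 54675 probe sets, and 62 control probe sets were left out. The annotation names 1 gene for 41091 of the others. No filter on low values was used, and 0 pairs of arrays were identical.

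All 9 arrays entered a single linear model of the 3 groups (limma 3.58.1, R 4.3.3), with eBayes and Benjamini-Hochberg adjustment over 54613 probe sets. It was repeated without AllStar replicate 3. Calls needed an adjusted p under 0.05 and at least 1.5-fold. The wording in the series text could also mean a log2 change of 1.5, which was tried as an alternative, beside other normalisations, array weights, a trend in eBayes, a replicate block and left-out arrays. Pathway genes were read by their probe set with the highest mean. The genes named from the lists were those called in either fit and otherwise up to 3 of a list with the smallest adjusted p for both mimics, and 5 most alike genes were named for EGFR and the 2 members with the smallest adjusted p. The other probe sets of called genes, with DUSP6, SPRY2, MAP2K2 and USP8, were added after their values were seen. The procedure was tested on simulated data with independent noise of the spread within the mimic groups. The simulation held no array like AllStar replicate 3, so it does not bear on calls that depend on that array. The members and lists were chosen with earlier results of these data known. Nothing in the labels beyond the word biological says how the replicates were separated, so p-values measure the spread between these samples. The number of arrays limits the precision.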

Additional observations from a re-analysis of the deposited data

How the results depend on the processing

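The 2 calls for both mimics with all 9 arrays held under quantile normalisation, cyclic loess, eBayes with trend and array weights. They became 0 with arrays centred on their median, with a log2 change of at least 1.5 and with a replicate block. Over all probe sets 0.0806% were called in the main fit. Where the calls held, the shares were 0.447%, 0.685%, 0.222% and 0.954% in the order named. The share was 0% with arrays centred and 0.00183% with the block. At a log2 change of 1.5, 5 of all probe sets were called. With Qmimic the count was 0 and became 2 under quantile normalisation, 2 under cyclic loess and 2 with array weights. These settings called 0.115%, 0.236% and 0.963% of all probe sets, beside 0% in the main fit. With Dmimic the count was 0 and became 1 under cyclic loess and 2 with array weights. There 0.428% and 1.22% of all probe sets were called, beside 0.00549% in the main fit. Leaving out 1 array at a time gave 0 to 2 calls for Qmimic, 0 to 3 for Dmimic and 0 to 2 for both mimics. The upper end was in each case without AllStar replicate 3. That fit called 0.54%, 0.864% and 0.721% of all probe sets, and the others 0% to 0.0256%. Pathway genes went from 0 to 2 with Qmimic under array weights. With Dmimic they went from 0 to 1 under quantile normalisation, 2 under cyclic loess and 5 with array weights, and with both mimics to 1, 2 and 3 under the same settings. Shares over all genes were not computed for those settings. With 1 array left out the pathway genes called numbered 0 to 1, 0 to 4 and 0 to 3. In the 8 arrays without AllStar replicate 3, leaving out a further array gave 0 to 2 calls for Qmimic, 0 to 4 for Dmimic, 0 to 3 for both mimics and 0 to 4 pathway genes for both mimics, settings chosen after the data were examined. Where 1 AllStar array remained, it was assumed to vary like the other groups. A replicate block in these 8 arrays gave 1, 0, 1 and 0. Shares over all probe sets are not given for these settings of the 8 arrays. These counts therefore cannot be set against the array as a whole. Deviations from the group means were correlated between arrays of the same replicate number. Of these 9 pairs 3 had a correlation above 0.1, and the range was -0.275 to 0.219. This cannot decide whether the replicate numbers pair the samples. Deviations within a group of 3 sum to 0, and AllStar replicate 3 is unlike the other arrays. The cause of the changes between settings was not tested. No difference of a member past the thresholds changed sign under any setting tried. A fit of the compared groups alone could not be run for both mimics. Signals near the arrays' lower quartile, as for ERBB4, limit what can be detected.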
